A study of Mus musculus with 4 samples.

Results

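The genes described here are the transforming growth factor β (TGF-β) ligands Tgfb1, Tgfb2 and Tgfb3, the receptors Tgfbr1, Tgfbr2 and Tgfbr3, and the latent TGF-β binding proteins Ltbp1, Ltbp2, Ltbp3 and Ltbp4. They were chosen by name, and all 10 were found among the 55421 genes counted in each library. RNA of uterine tissue was sequenced from 2 WT mice (C57BL/6J) and from 2 mice of the H2 congenic strain B6.K1 (B6.Cg-H2b3/FlaCmwJ), called Qa-2-. All were pregnant at E18.5, with 1 library per uterus. Qa-2- mice lack Qa-2, both strains were mated syngeneically, and WT mice came from a different supplier, so that any other difference between the colonies cannot be told apart from the lack of Qa-2. The paper speaks of whole uterine lysates and isolated RNA from milligram amounts of the frozen tissue, while the sample titles name only the uterus. No cells were sorted. The part of the uterus taken, fewer cells of a type and less RNA per cell thus cannot be told apart.

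TGF-β ligands are secreted in a latent form. The propeptide, cut from the growth factor by furin, stays wrapped around it and is joined to a latent TGF-β binding protein, which tethers the complex to fibrillin and fibronectin in the matrix. Integrins, thrombospondin and proteases can free the ligand. The active ligand binds the type II receptor Tgfbr2, which then activates the type I receptor Tgfbr1, and this kinase passes the signal to SMAD proteins. Tgfbr3, also called betaglycan, presents ligand to the signaling receptors and matters most for the Tgfb2 product, which binds the type II receptor poorly by itself. In the pregnant uterus the pathway is known for its parts in decidualization, in shaping the vessel wall and in restraining immune cells.

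Total counts lay between 33286390 and 41041299 read pairs per library, and both WT libraries were the deeper ones. The label check held in every library, as the Qa-2 genes H2-Q6 (at least 1192 counts) and H2-Q7 (at least 1251 counts) were well covered in WT mice and had at most 3 and 4 counts in Qa-2- mice. Of the markers of uterine tissue (Esr1, Pgr, Hoxa10, Hoxa11 and Hoxd10), all 5 were well above the floor, with sums between 769.3 and 890.4 CPM. Of the yolk sac markers, Rbp4 had 979.2 CPM in WT replicate 1 and Afp had 374.2 CPM in Qa-2- replicate 1, each far above the other 3 libraries. Apoa4, Apob and Ttr, the rest of that list, were also highest in Qa-2- replicate 1, at 24.2, 79.6 and 5.11 CPM. In WT replicate 1 they had 0.924, 0.624 and 0.175 CPM, and Afp had 3.94 CPM. Only Rbp4 of the list was thus high in WT replicate 1. The 8 trophoblast markers summed to 0.674 and 20.4 CPM in WT and to 3.64 and 0.229 CPM in Qa-2- mice: Psg21, Tpbpa and Prl3b1 had 308, 271 and 155 counts in WT replicate 2, Tpbpa had 115 counts in Qa-2- replicate 1, and Prl3d1 and Gcm1 had 0 counts in every library. The lowest count of any TGF-β gene was 114, in Ltbp2, far above the floor of 3 counts.

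Levels are given as normalized CPM (CPM, counts per 1e+06 counts of the library after TMM scaling), and per kb of exon where genes are compared with each other. Per kb, Tgfb2 stood highest of the 10 genes on average, at 232.1 ± 96.5 (SD, n = 4), followed by Ltbp4 at 160.8 ± 48.1 and Tgfbr2 at 110.6 ± 17.0 (SD, n = 4 each). Tgfbr3 came next at 55.2, then Ltbp3 at 23.7, Tgfb3 at 17.6, Tgfb1 at 11.7, Tgfbr1 at 7.36, Ltbp1 at 6.08 and Ltbp2 at 1.58 normalized CPM per kb. The gene with the highest level was thus Tgfb2 among the ligands, Tgfbr2 among the receptors and Ltbp4 among the latent binders. Between neighbours in this order the libraries overlapped, apart from 3 steps without overlap, which were Tgfbr2 above Tgfbr3, Tgfbr3 above Ltbp3, and Ltbp1 above Ltbp2. The order of neighbours held within all 4 libraries for 6 of the 9 steps and in 3 of 4 libraries for the others, as Ltbp4 exceeded Tgfb2 in WT replicate 2, Tgfbr2 exceeded Ltbp4 in WT replicate 1, and Ltbp1 exceeded Tgfbr1 in WT replicate 2.

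**Figure D1:**
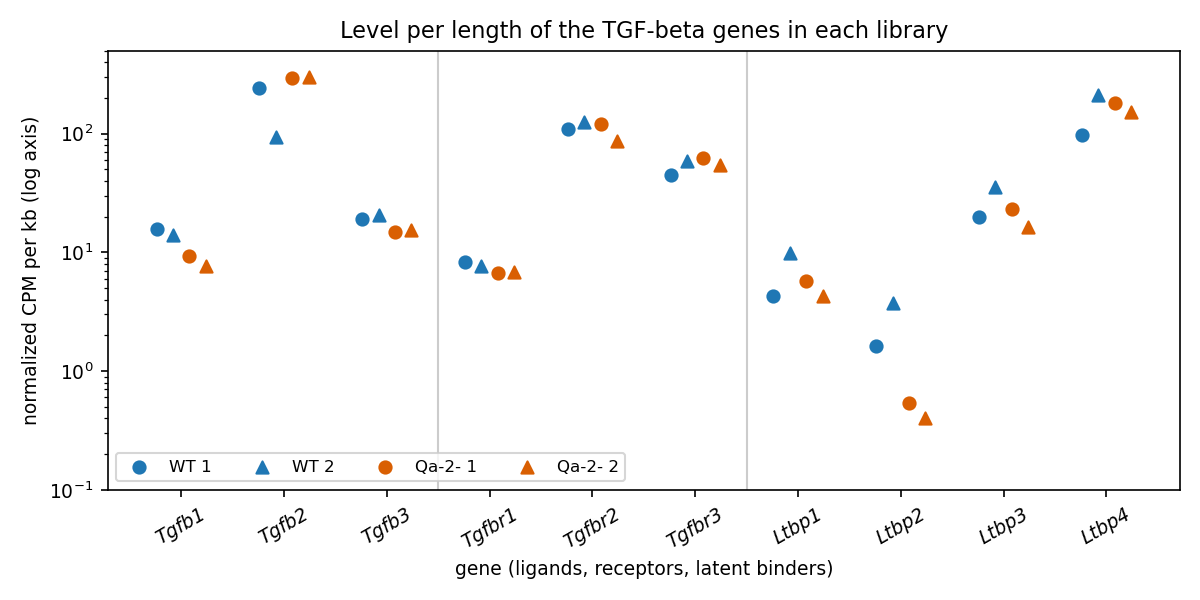
Level of each TGF-β gene (x axis) as normalized CPM per kb of exon on a log axis, with 1 point per library (WT blue, Qa-2- orange, circles replicate 1, triangles replicate 2). Tgfb2 lies near or above 100 in all libraries, while Ltbp2 lies between 0.399 and 3.74, with both WT points above both Qa-2- points.

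Of the 10 genes, 4 had both WT libraries above both of the Qa-2- group (Tgfb1, Tgfb3, Tgfbr1 and Ltbp2), where 25.4% of the 14492 genes kept by the filter had this order. A single gene, Tgfb2, was higher in both Qa-2- libraries, an order that 24.5% of all genes had. In the other 5 genes the libraries of the groups overlapped. With 1 library fewer, overlap is less frequent in all genes too: 8 genes were higher in WT and 1 in Qa-2- mice without WT replicate 1 (beside 40.1% and 37.5% of all genes), 7 and 1 without Qa-2- replicate 1 (38.1% and 38.3%), 4 and 3 without WT replicate 2 (36.9% and 37.2%), and 4 and 2 without Qa-2- replicate 2 (37.1% and 34.7%). Fold changes are given as WT over Qa-2-. Their median on the log2 scale was 0.32 over the 10 genes, beside 0.01 over all genes kept, and it was 0.04 without WT replicate 2. With edgeR (quasi-likelihood F-test, p adjusted after Benjamini-Hochberg), 0 of the 10 genes passed an adjusted p of 0.05, beside 0% of all genes. Before adjustment, edgeR's p was under 0.05 for 3 of them with the higher level in WT mice (Tgfb1, Tgfb3 and Ltbp2), as for 8.09% of all genes, and for 0 of them with the higher level in Qa-2- mice, as for 7.09% of all genes. These counts came to 4 and 1 without WT replicate 1 (beside 6.70% and 9.09% of all genes in that fit), and to 2 and 0 without WT replicate 2 (6.72% and 6.46%), without Qa-2- replicate 1 (6.94% and 5.35%) or without Qa-2- replicate 2 (3.09% and 2.55%). DESeq2 (Wald test) called 2 of the 10 genes higher in WT mice, Tgfb1 and Ltbp2, beside 2.79% of all genes, and 0 higher in Qa-2- mice, beside 2.04%. With 2 mice per group, no exact two-sided permutation test of 1 gene can go below p = 0.33.

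**Figure D2:**
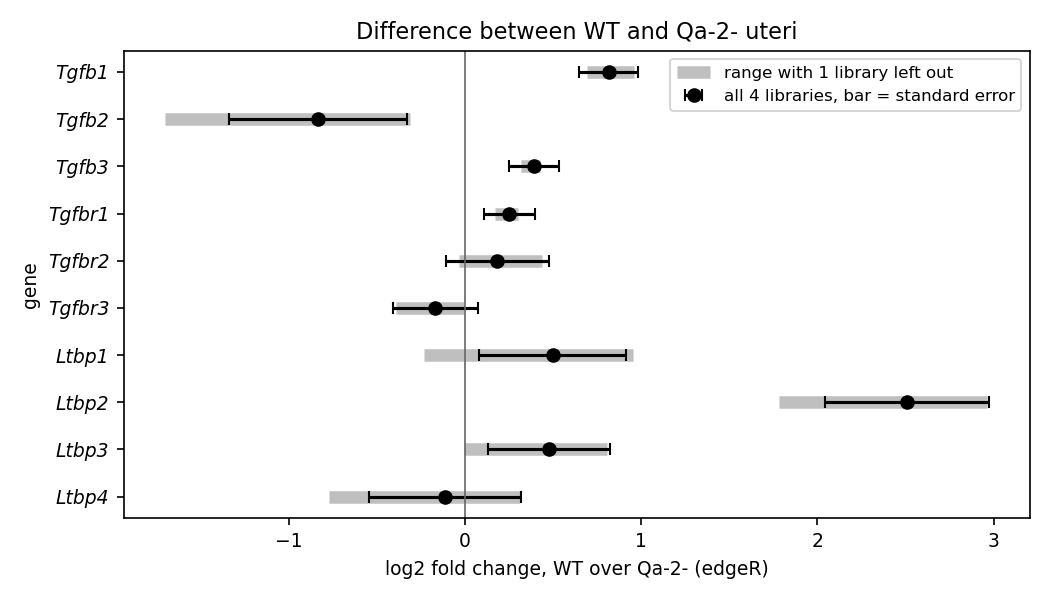
Log2 fold change, WT over Qa-2- (x axis), for each TGF-β gene, with the standard error (SE) from edgeR as bars and the range of the 4 fits that each left out 1 library in grey. Ltbp2 stays between 1.78 and 2.96, whereas the ranges of Tgfbr2, Ltbp1, Ltbp3 and Ltbp4 cross 0.

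Among the ligands, Tgfb1, the form best known from blood and endothelial cells, had 79.7 and 71.4 CPM in the WT mice, and 46.8 and 38.9 CPM in the Qa-2- mice. The 2 groups did not overlap, and their means of 75.5 ± 5.91 for WT and 42.9 ± 5.59 for Qa-2- (CPM, ± SD, n = 2 each) lay much further apart than the mice within each group. The log2 fold change of Tgfb1 was 0.82 (SE 0.17, edgeR adjusted p = 0.246, DESeq2 adjusted p = 0.0239). It lay between 0.69 and 0.96 when each library was left out in turn, and the adjusted p ran from 0.0239 (DESeq2) to 0.818 (edgeR without Qa-2- replicate 2) over the alternatives. Markers of endothelium were likewise higher in both WT libraries, in 8 of 8 genes, with summed levels of 1286 and 1148 CPM in WT and of 596.2 and 564.7 CPM in Qa-2- mice, and 3 of the 8 leukocyte markers (Adgre1, Cd68 and Itgam) were higher in both WT libraries too. Of the other leukocyte markers, 2 were higher in both Qa-2- libraries (Ptprc and Ncr1), and the summed levels overlapped, at 312.7 and 436.2 CPM in WT and 341.8 and 247.8 CPM in Qa-2- mice. The part of the endothelium and leukocyte markers in the level of Tgfb1 was not tested. Tgfb1 lies on chromosome 7 of GRCm38, from 25687002 to 25705077.

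Tgfb2, the ligand with the most transcript here, on chromosome 1 from 186622792 to 186705989, had 1393 and 539.4 CPM in the WT mice, and 1720 and 1725 CPM in the Qa-2- mice. WT replicate 2 stood apart from the other 3 libraries, far below each of them. The log2 fold change was -0.83 (SE 0.50, edgeR adjusted p = 0.471). It depended on both WT libraries, as it was -0.31 without that library and -1.70 without WT replicate 1. Markers of epithelium were also lowest in WT replicate 2, in 8 of 10 genes, and 6 of the 10 were higher in both Qa-2- libraries, with summed levels of 4407 and 2492 CPM in WT against 4477 and 8955 CPM in Qa-2- uteri. Ltf alone gave 4943 CPM of the last sum, and without Ltf, left out after its values were seen, the sums were 3056 and 1865 CPM in WT and 4061 and 4011 CPM in Qa-2- mice. Their part in the level of Tgfb2 was not tested.

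Tgfb3, on chromosome 12 of GRCm38 from 86056745 to 86079041, had 64.4 and 70.4 CPM in the WT mice, and 50.6 and 52.3 CPM in the Qa-2- mice. Both WT libraries were higher, by less than in Tgfb1. The log2 fold change was 0.39 (SE 0.14, edgeR adjusted p = 0.313) and ranged from 0.32 to 0.42 with each library left out. Per kb, Tgfb3 exceeded Tgfb1 in 4 of 4 libraries.

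For Tgfb1 and Ltbp2, the 2 genes called by DESeq2, and for Tgfb2, the ligand with the highest level, the 250 bases before the annotated start are shown from RefSeq (GRCm38.p6), which held a promoter for 8 of the 10 genes. The windows lie at chr7:25686752-25687001 on the plus strand for Tgfb1, at chr1:186705990-186706239 on the minus strand for Tgfb2 and at chr12:84876492-84876741 on the minus strand for Ltbp2. The start of Ltbp2 in RefSeq lies within the gene as GENCODE gives it, so that this window overlaps the edge of the GENCODE gene. All windows are written 5′ to 3′ in the direction of the gene, and capitals mark matches on either strand to any of the motifs searched.
Tgfb1: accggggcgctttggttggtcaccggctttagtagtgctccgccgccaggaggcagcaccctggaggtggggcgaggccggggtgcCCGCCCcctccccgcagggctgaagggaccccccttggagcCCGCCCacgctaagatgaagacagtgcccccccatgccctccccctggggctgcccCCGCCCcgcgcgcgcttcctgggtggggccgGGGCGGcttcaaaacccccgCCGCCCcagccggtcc
Tgfb2: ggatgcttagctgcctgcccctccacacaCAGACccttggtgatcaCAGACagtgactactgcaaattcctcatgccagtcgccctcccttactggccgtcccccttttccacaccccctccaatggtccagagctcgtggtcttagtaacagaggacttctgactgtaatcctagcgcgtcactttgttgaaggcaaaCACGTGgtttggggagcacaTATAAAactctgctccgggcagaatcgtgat
Ltbp2: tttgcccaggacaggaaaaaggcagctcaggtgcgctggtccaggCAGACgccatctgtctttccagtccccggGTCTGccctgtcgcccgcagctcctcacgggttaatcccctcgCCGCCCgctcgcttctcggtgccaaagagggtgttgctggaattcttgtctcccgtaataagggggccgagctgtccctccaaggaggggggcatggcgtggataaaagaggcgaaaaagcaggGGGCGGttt

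The motifs searched on both strands were the TATA box TATAAA, the GC box GGGCGG, the E-box CACGTG, the SMAD box CAGAC, the palindromic SMAD element GTCTAGAC, the AP-1 site TGANTCA and the cyclic AMP element TGACGTCA. The Tgfb1 window held 5 GC boxes and none of the other motifs, at a GC content of 75.2%. The Tgfb2 window held a TATA box that begins 31 bases before the start, an E-box that begins 51 bases before it, and 2 SMAD boxes, at a GC content of 53.6%. Both SMAD boxes of Ltbp2, at 205 and 176 bases before the start, lie on opposite strands, and 2 GC boxes accompany them. Of all 32851 promoters of the same length, 12.4% held the TATA box, 32.7% the GC box, 6.02% the E-box and 42.2% the SMAD box. The palindromic SMAD element, the AP-1 site and the cyclic AMP element, found in 0.167%, 6.75% and 1.55% of all promoters, were not matched in these 3 windows. A match is a run of letters and no evidence of binding.

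The log2 fold changes of the 3 receptors lay between -0.17 and 0.25. Tgfbr1, the type I receptor kinase, had 54.2 and 50.3 CPM in the WT mice, and 43.5 and 44.3 CPM in the Qa-2- mice. The groups did not overlap, with a log2 fold change of 0.25 (SE 0.14, edgeR adjusted p = 0.450). Tgfbr2, the type II receptor, had 903.8 and 1021 CPM in the WT mice, and 987.4 and 710.2 CPM in the Qa-2- mice, so that the groups overlapped and only Qa-2- replicate 2 was clearly lower. Its log2 fold change was 0.18 (SE 0.29, edgeR adjusted p = 0.795), and -0.037 without Qa-2- replicate 2. Tgfbr3 had 292.5 and 387.4 CPM in the WT mice, and 409.7 and 354.7 CPM in the Qa-2- mice, with overlap and a log2 fold change of -0.17 (SE 0.24, edgeR adjusted p = 0.766), which was -0.0079 without WT replicate 1 and -0.39 without WT replicate 2. On GRCm38, Tgfbr1 lies on chromosome 4 from 47353222 to 47414931, Tgfbr2 on chromosome 9 from 116084293 to 116175360, and Tgfbr3 on chromosome 5 from 107106570 to 107289629, where 3 gene models on the same strand overlap Tgfbr3 with at most 32 counts in a library. Per kb, the type II receptor exceeded the type I receptor by 12.8 to 18.1 times in the 4 libraries.

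Among the latent binders, Ltbp2 had the largest log2 fold change of the 10 genes. Ltbp2 is a fibrillin-associated matrix protein that, unlike its relatives, is not known to bind latent TGF-β. The gene lies on chromosome 12 of GRCm38 from 84783212 to 84876532, with its end 1.18 Mb from the start of Tgfb3. WT mice had 13.3 and 30.6 CPM of Ltbp2 (532 and 1151 counts), and Qa-2- mice had 4.43 and 3.27 CPM (157 and 114 counts). The lower WT library was far above the higher Qa-2- library, although the WT libraries themselves differed more than the Qa-2- libraries did. The ratio of mean CPM, WT over Qa-2-, was 5.70, with a log2 fold change of 2.51 (SE 0.46, edgeR adjusted p = 0.246, DESeq2 adjusted p = 2.26e-05). Over the alternatives the adjusted p of Ltbp2 ran from 2.26e-05 (DESeq2) to 0.818 (edgeR without Qa-2- replicate 2), and the log2 fold change from 1.78 (without WT replicate 2) to 2.96. Markers of red cells followed the same order over the libraries, with 364.5 and 723.5 CPM in WT against 116.0 and 75.8 CPM in the Qa-2- mice, and all 5 genes of that list had both WT libraries on top. Of the 5 mesothelium markers, 4 were likewise higher in each WT library. The list median was 3.42 on the log2 scale, with 23.8 and 17.2 CPM of Upk3b in WT and 2.12 and 1.69 CPM in Qa-2- mice. Their summed levels, of which Wt1 gave the most in every library but did not separate the groups, were 127.6 and 136.0 CPM in WT and 104.0 and 58.2 CPM in Qa-2- mice. The percent of counts from mitochondrially encoded genes had that order over the libraries too, at 1.25% and 1.81% in WT and 1.10% and 0.843% in Qa-2- mice. Summed smooth muscle markers, like the mesothelium sums, had the same order, at 27088 and 45098 CPM in WT and 24007 and 12867 CPM in Qa-2- mice. The part of the red cell, mesothelium and smooth muscle markers and of the mitochondrial counts in the level of Ltbp2 was not tested.

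Ltbp1, Ltbp3 and Ltbp4 differed more between the 2 WT mice than between the means of the genotypes. Ltbp4, which organizes elastic fibers, had 633.3 and 1364 CPM in the WT mice, and 1170 and 990.0 CPM in the Qa-2- mice. WT replicate 1 was the lowest and WT replicate 2 the highest of the 4 libraries. The log2 fold change was -0.11 (SE 0.43, edgeR adjusted p = 0.914), and its sign turned to 0.31 without WT replicate 1.

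Ltbp3, which assists the secretion of latent TGF-β, had 179.5 and 319.9 CPM in the WT mice, and 210.1 and 149.5 CPM in the Qa-2- mice, a log2 fold change of 0.47 (SE 0.35, edgeR adjusted p = 0.544). Ltbp1, the widely expressed carrier of latent TGF-β, had 46.1 and 106.2 CPM in the WT mice, and 61.9 and 45.9 CPM in the Qa-2- mice, a log2 fold change of 0.50 (SE 0.42, edgeR adjusted p = 0.597). In both genes WT replicate 2 was the highest library and the groups overlapped. Without WT replicate 2 the log2 fold change was -0.0054 in Ltbp3 and -0.23 in Ltbp1. Markers of smooth muscle were highest in WT replicate 2 as well, in 8 of 8 genes, of which 6 were higher in both WT libraries, with summed levels of 27088 and 45098 CPM in WT against 24007 and 12867 CPM in the Qa-2- mice, and their part in these levels was not tested. Ltbp4 lies on chromosome 7 from 27305136 to 27337692 and Ltbp3 on chromosome 19 from 5740904 to 5758532. Ltbp1 lies on chromosome 17 from 75005568 to 75392512, as H2-Q7 does, 39.6 Mb away from it.

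Shares within a library do not depend on its depth. Counted per kb, Tgfb2 made up 87.3% and 72.7% of the ligand transcripts in WT against 92.5% and 92.8% in Qa-2- uteri. Tgfb1 made up 5.74% and 11.0% in WT against 2.89% and 2.41%, and Tgfb3 made up 6.91% and 16.2% in WT against 4.65% and 4.81% in Qa-2- uteri. All 3 shares were free of overlap between the groups, although the WT replicates lay far apart. As a ratio per kb, Tgfb2 exceeded Tgfb1 by 15.2 and 6.58 times in WT against 32.0 and 38.6 times in Qa-2- uteri.

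The make-up of the latent binders was closer between mice of 1 genotype than their levels were. Ltbp4 took 79.2% and 81.2% of latent binder transcripts per kb in WT against 86.0% and 87.9% in Qa-2- uteri, a mean difference of -6.73 percentage points. Ltbp3 took 16.0% and 13.6% in WT against 11.0% and 9.45%. Ltbp1 took 3.48% and 3.82% in WT against 2.75% and 2.46%, and Ltbp2 took 1.31% and 1.44% in WT against 0.257% and 0.229% in Qa-2- uteri. Each of these 4 shares was free of overlap between the genotypes, with standard deviations of at most 1.72 percentage points within a group (n = 2), but shares of 1 family sum to 100% and so are not independent of each other. The exact permutation test gave p = 0.33 for each of these 4 shares and for each of the 3 ligands, which is the smallest value that 2 against 2 mice allow (0.37 after Benjamini-Hochberg adjustment over the 10 shares of this exact test). Of the receptors, Tgfbr2 took 67.6% and 65.1% in WT against 63.5% and 58.7%, and Tgfbr3 27.4% and 30.9% against 33.0% and 36.7% in Qa-2- uteri (exact permutation test, p = 0.33 each). The share of Tgfbr1 overlapped between the groups, at 5.08% and 4.02% in WT and 3.51% and 4.59% in Qa-2- uteri (exact permutation test, p = 0.67).

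**Figure D3:**
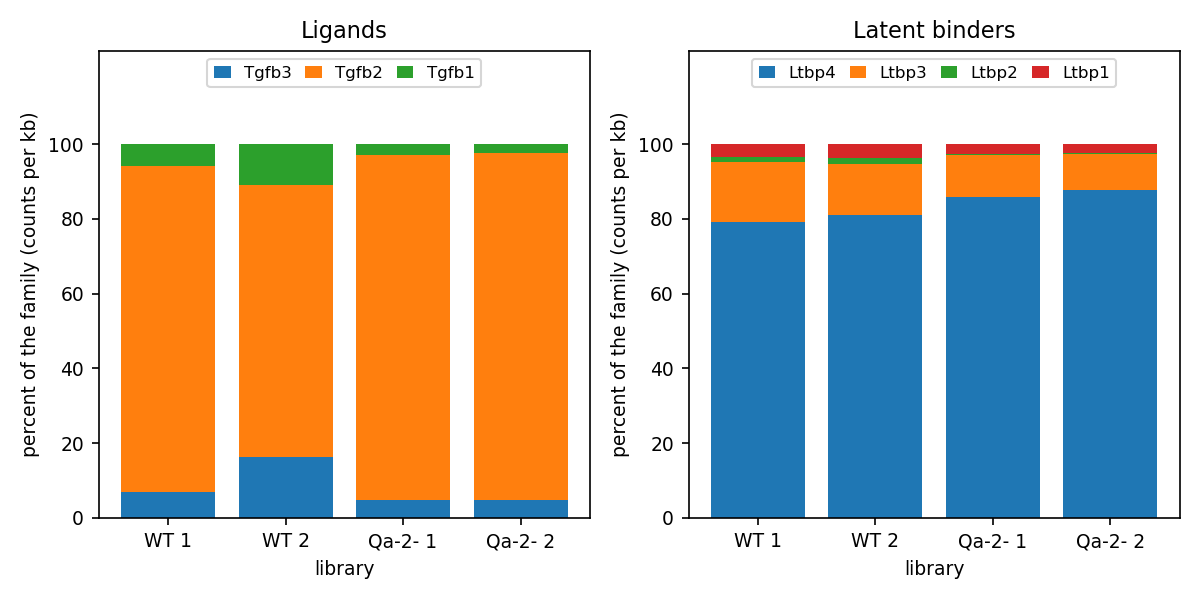
Percent of ligand transcripts (left) and of latent binder transcripts (right) that each gene took in each library, from counts per kb of exon, as stacked bars. Tgfb2 and Ltbp4 fill most of every bar, and the Ltbp4 part is 79.2% and 81.2% in WT against 86.0% and 87.9% in Qa-2- uteri.

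Over the 4 libraries, the 3 most similar pairs of the 45 pairs of TGF-β genes were Tgfb3 with Tgfbr1, Ltbp1 with Ltbp3, and Tgfbr1 with Tgfbr2. After centring each gene, their log2 CPM differed by a root mean square of 0.11, 0.13 and 0.20, which is a description over 4 libraries of 1 tissue.

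**Figure D4:**
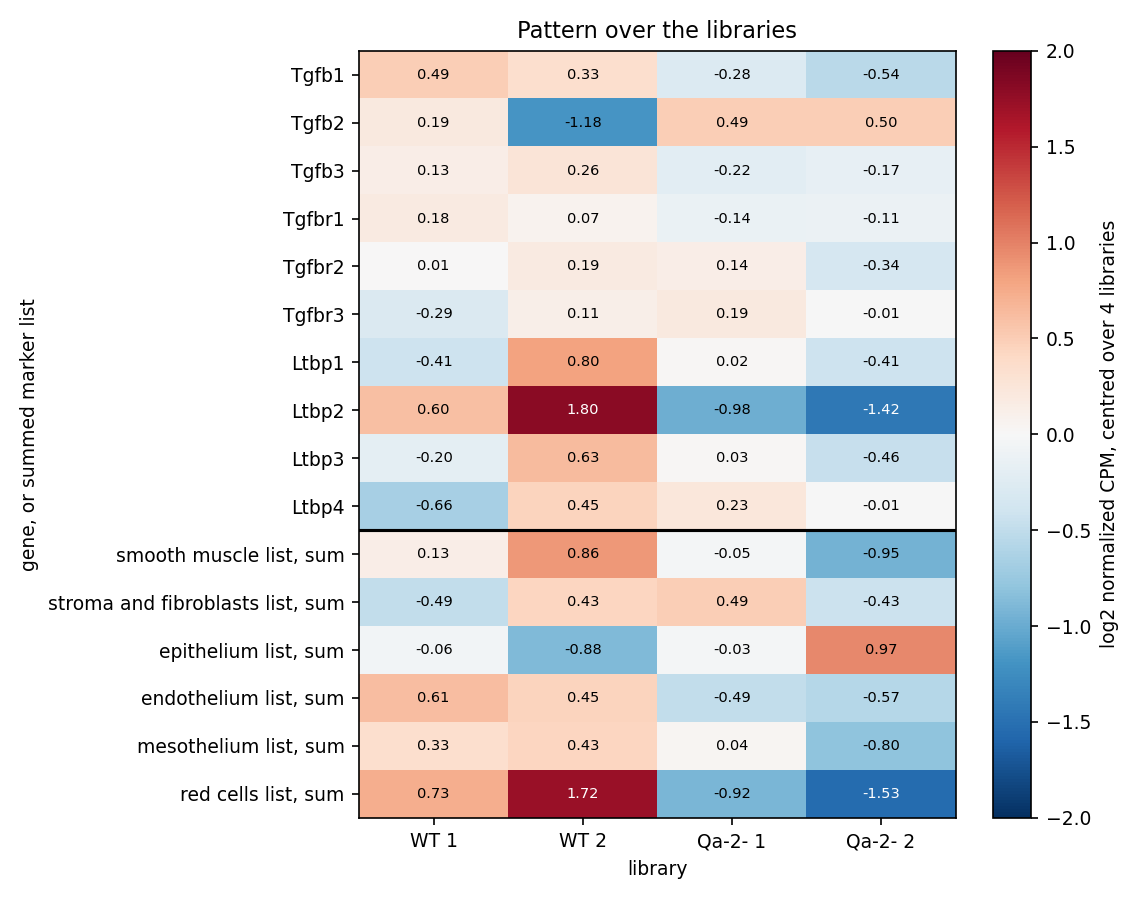
Log2 normalized CPM of each TGF-β gene (upper rows) and of the summed marker lists (lower rows) in each library, centred on the mean of the 4 libraries, with red for higher and blue for lower. In WT replicate 2, Tgfb2 is at -1.18 and the epithelium list at -0.88, while Ltbp2 is at 1.80 and the red cell list at 1.72.

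Beyond the 10 genes, 62 other genes of the pathway were described in 6 lists by role, and all 62 passed the filter. Of these, 26 genes (41.9%) were higher in both WT libraries and 11 genes (17.7%) had both Qa-2- libraries on top, beside 25.4% and 24.5% of all genes. Without WT replicate 2 these were 27 and 21 genes (43.5% and 33.9%, beside 36.9% and 37.2% of all genes), and without Qa-2- replicate 2 they were 27 and 20 genes (43.5% and 32.3%, beside 37.1% and 34.7%). They were 36 and 15 genes without WT replicate 1 (58.1% and 24.2%, beside 40.1% and 37.5%). Leaving out Qa-2- replicate 1 gave 36 and 16 genes (58.1% and 25.8%, beside 38.1% and 38.3%). Their median log2 fold change was 0.30, but 0.05 without WT replicate 2 and 0.08 without Qa-2- replicate 2. edgeR called 0 of these 62 genes after adjustment and DESeq2 called 7 (11.3%), each higher in WT mice, beside 2.79% of all genes. Without adjustment, edgeR's p was under 0.05 for 15 genes higher in WT mice (24.2%, beside 8.09% of all genes) and for 2 higher in Qa-2- mice (3.23%, beside 7.09%). Without Qa-2- replicate 2 these were 2 and 3 genes (3.23% and 4.84%, beside 3.09% and 2.55% of all genes), and without WT replicate 1 they were 10 and 5 genes (16.1% and 8.06%, beside 6.70% and 9.09%).

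Of the co-receptors, Eng (endoglin, a co-receptor of endothelial cells) had 198.3 and 230.1 CPM in the WT mice, and 142.2 and 102.5 CPM in the Qa-2- mice, a log2 fold change of 0.81 (SE 0.23). Cd109, which binds TGF-β at the cell surface, had 151.7 CPM in WT replicate 1 and between 22.3 and 28.0 CPM in the other 3 libraries, and its log2 fold change of 1.83 was 0.07 without WT replicate 1. The decoy receptor gene Bambi stood at -0.46 (SE 0.21), and at -0.26 without Qa-2- replicate 2, and Tgfbr3l at -0.97 (SE 0.87) on the log2 scale. Tgfbr3l had 9 counts in WT replicate 1, the lowest library, and its log2 fold change was -0.18 without it and -3.01 without WT replicate 2. The part of the endothelium markers in the level of Eng was not tested.

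Of 8 matrix anchors, 3 were higher in both WT libraries and 2 in both Qa-2- libraries (37.5% and 25.0%, beside 25.4% and 24.5% of all genes). Fbln5, a fibulin of elastic fibers, had 125.9 and 135.8 CPM in the WT mice, and 60.6 and 40.1 CPM in the Qa-2- mice, a log2 fold change of 1.38 (SE 0.24, edgeR adjusted p = 0.246), and it was among the genes called by DESeq2. Fn1 (fibronectin) reached 1.42 on the log2 scale with an SE of 0.67, from 4581 and 9498 CPM in WT and 3752 and 1492 CPM in Qa-2- uteri, and it was 0.80 without WT replicate 2 and 2.24 without Qa-2- replicate 1. Tgm2, a transglutaminase that crosslinks latent complexes into the matrix, was at -0.56 (SE 0.34), and at -0.16 without Qa-2- replicate 2. Adamtsl2 was at -0.64 (SE 0.49), and between -1.50 and -0.13 with 1 library left out.

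Of 13 genes that help release the latent complex, 6 were higher in both WT libraries and 3 in both Qa-2- libraries (46.2% and 23.1%, beside 25.4% and 24.5% of all genes). Thbs1, the activator thrombospondin 1, had 208.3 and 229.1 CPM in the WT mice, and 74.1 and 62.0 CPM in the Qa-2- mice. Its replicates lay close together, with a log2 fold change of 1.68 (SE 0.19, edgeR adjusted p = 0.228), and the adjusted p ran from 4.58e-10 (DESeq2) to 0.818 (edgeR without Qa-2- replicate 2) over the alternatives. Mmp14, a membrane-bound metalloprotease, had a log2 fold change of 0.92 (SE 0.36), and of 0.38 without WT replicate 1. The integrin subunit genes Itgb8 and Itgb6 had negative log2 fold changes, with Itgb8 at 23.6 and 11.5 CPM in WT against 26.7 and 50.9 CPM (log2 fold change -1.14, SE 0.46), and Itgb6 at -1.31 (SE 0.69) with overlap between the groups. Without Qa-2- replicate 2, in which 6 of the 10 epithelium markers were highest, these were -0.60 for Itgb8 and -0.26 for Itgb6, and the part of those markers was not tested. Of the other integrin subunit genes in this list, Itgb1, Itgb3 and Itgb5 were higher in both WT libraries. Their log2 fold changes were 0.75, 0.73 and 0.67. Itgav was higher in both Qa-2- libraries, at -0.42.

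Of the 5 matrix proteins that bind active ligand, Lum had a log2 fold change of 1.15 and Dcn of 0.98, both higher in both WT libraries and both called by DESeq2, and both belong to the 8 stroma markers too. Of that list 4 genes were higher in both WT libraries and 1, Pdgfra, in both Qa-2- libraries (log2 fold change -0.59), Col1a1 and Col1a2 were at -0.19 and -0.29, and the sums overlapped, at 16705 and 31648 CPM in WT and 33014 and 17439 CPM in Qa-2- mice. The part of stroma in Lum and Dcn was not tested. Without WT replicate 1, Lum was at 0.74. Dcn (decorin) had 3503 and 2778 CPM in the WT mice, and 1891 and 1290 CPM in the Qa-2- mice. Bgn stood at 0.30 and Fmod at -0.71 with overlapping libraries, and Fmod was at -0.32 without Qa-2- replicate 1 and at -1.14 without WT replicate 2.

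The 13 SMADs and cofactors had a median log2 fold change of -0.04, near that of all genes. Smad3, a mediator of TGF-β signals, had 49.9 and 34.5 CPM in the WT mice, and 76.9 and 69.4 CPM in the Qa-2- mice, a log2 fold change of -0.79 (SE 0.22, edgeR adjusted p = 0.274). The inhibitory Smad7, itself induced by the pathway, had 17.9 and 19.2 CPM in the WT mice, and 12.3 and 10.5 CPM in the Qa-2- mice, a log2 fold change of 0.70 (SE 0.19). Fkbp1a, whose product holds the type I receptor inactive, was at 0.57 and the ubiquitin ligase gene Smurf1 at -0.31, which was -0.58 without WT replicate 1 and -0.12 without WT replicate 2.

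Of 21 target genes, 11 were higher in both WT libraries, 2 in both Qa-2- libraries and 8 overlapped (52.4% and 9.52%, beside 25.4% and 24.5% of all genes). Their median log2 fold change was 0.37. It lay between 0.29 and 0.73 with 1 library left out, and was highest without Qa-2- replicate 1. Acta2 and Tagln, both among the 11, are also smooth muscle markers, a list with 6 of 8 genes higher in both WT libraries, and the part of smooth muscle was not tested. Nox4, an oxidase gene, had 26.8 and 7.78 CPM in the WT mice, and 3.98 and 3.04 CPM in the Qa-2- mice. WT replicate 1 stood far above WT replicate 2, and the log2 fold change of 2.30 (SE 0.62) was 1.12 without WT replicate 1. Snai2, a transcription factor gene of mesenchymal cells, was at -0.67 with an SE of 0.16, from 23.2 and 27.2 CPM in WT against 39.2 and 41.1 CPM in Qa-2- uteri. Cdkn2b was at -0.55 with overlap.

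**Figure D5:**
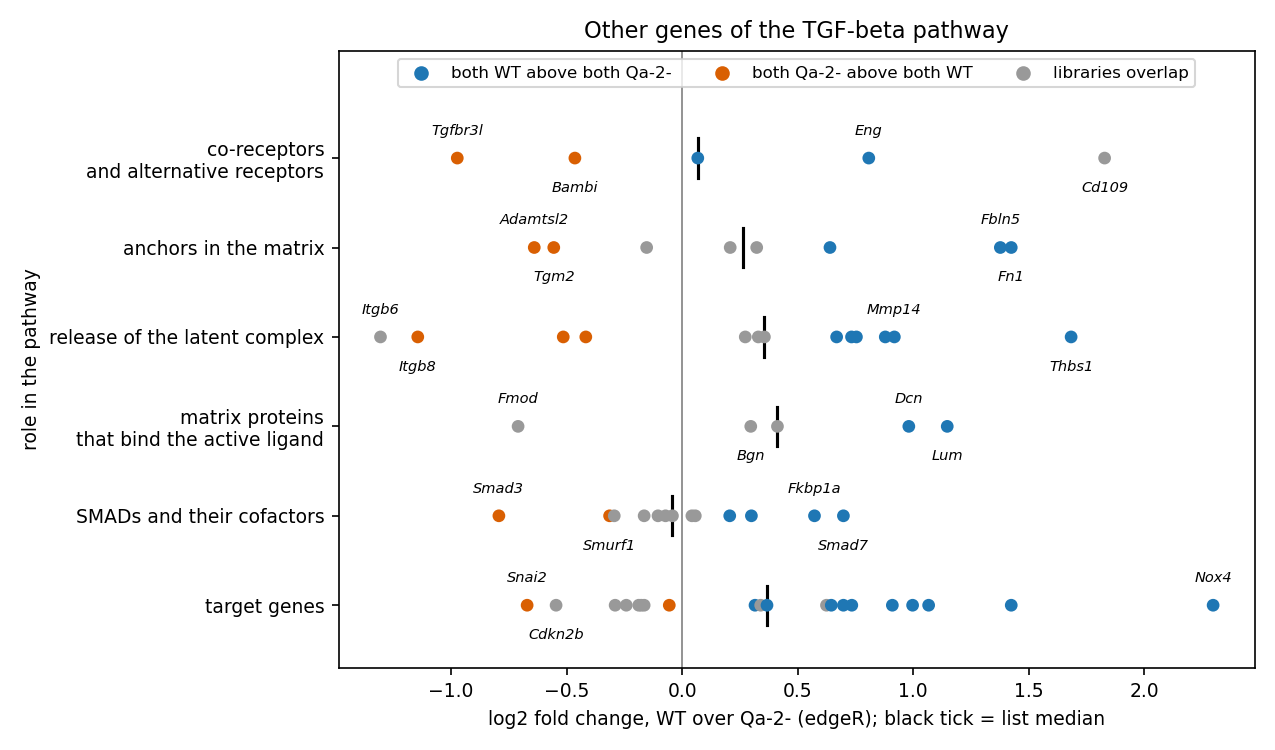
Log2 fold change, WT over Qa-2- (x axis), for 61 other genes of the TGF-β pathway, by role, with each gene as a point and medians of the full lists as black ticks (3 genes appear in 2 lists). Of the 61 genes drawn, 25 are blue (higher in both WT libraries) and 11 are orange (both Qa-2- libraries higher).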

How the data were processed

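RNA of uterine tissue had been made into poly(A)-enriched, strand-specific libraries and sequenced in read pairs by the authors. Each sample was taken as 1 mouse, which the labels do not state. Per the file headers and the submitters' processing notes, reads were mapped with STAR 2.7.3a to GRCm38.p6 and counted on exons by gene with featureCounts 2.0.0. Counting was on the reverse strand and left out pairs that fitted several places or genes. The deposited values are raw counts of read pairs per gene, and the deposited table gives the exon length that was used for values per kb. Of 55421 gene identifiers, 55154 were given a symbol from GENCODE M21.

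Groups follow the genotype in the sample titles. A gene was kept if 2 or more libraries reached 1 CPM (14492 genes). TMM normalization and a legacy quasi-likelihood fit were run in edgeR 4.0.16 under R 4.3.3, with Benjamini-Hochberg adjustment over all genes kept, as WT over Qa-2-. CPM use TMM-scaled library sizes. The SE is the log2 fold change divided by the square root of F. Shares were compared by a two-sided exact permutation test over the 4 samples. Alternatives were DESeq2 1.42.0, other normalizations, filters and fits, a replicate block, and each library left out. The samples carry numbers 1 and 2 in both groups from different animals, and deviations of same-numbered samples from group means correlated at -0.37, so the numbers were not treated as pairs. The crossed pairing and the counts before adjustment with a library left out were added after the data were seen. No library was a repeat of another, since the chi-square between the 2 libraries of a group averaged 240.8 (WT) and 150.9 (Qa-2-) over genes. The p-values measure only the spread between these samples, which may be technical. The floor of 3 counts covers counting error only.

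Named genes are the 10 TGF-β genes, H2-Q6 and H2-Q7, and in each pathway list the 2 highest and the 2 lowest log2 fold changes, of which 1 gene is not reported here. Rbp4, Afp, the rest of the yolk sac list, Prl8a2, the other integrin subunit genes, the markers given beside a result and the motifs were chosen after values were seen. The genes and all lists were chosen with earlier results of these data known. The steps were tested on simulated counts. Markers of decidua and platelets were computed too. Summed CPM of the platelet markers ran from 27.7 to 39.8 over the 4 libraries. Decidua markers summed to 290.3 and 202.4 CPM in WT and to 143.0 and 183.1 CPM in Qa-2- mice. Of these sums, Prl8a2 gave 109.5 and 2.05 CPM in WT and 3.92 and 13.3 CPM in Qa-2- mice, far the most in WT replicate 1. The part of decidua in the genes described here was not tested.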

Additional observations from a re-analysis of the deposited data

How the results depend on the processing

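No gene of the 10 was called by edgeR without a block, nor with library totals alone, upper-quartile normalization, at least 10 counts in every sample, filterByExpr, the newer quasi-likelihood fit (legacy off), a robust fit, the replicate block, the crossed pairing, or any library left out. DESeq2 called 2 (Tgfb1 and Ltbp2), and edgeR without a filter called 1 (Ltbp2). Of the 62 other pathway genes, DESeq2 called 7, edgeR without a filter 1, and edgeR without WT replicate 2 called 3 (Cd109 and Nox4 among them), so that leaving out 1 library gave 0 to 3. Over all genes, 0 were called without a block, 2 with the replicate block, 0 with the crossed pairing, 61 without a filter, 700 by DESeq2, and 0 to 93 with 1 library left out, where the lone library of a group is assumed to vary like the other group; the cause was not tested.

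The median log2 fold change of the 10 genes was 0.32, 0.32 with the replicate block and 0.32 with the crossed pairing. The labels do not say whether same-numbered samples share a day or batch. Each of the 10 genes kept its direction under the 10 alternatives with 4 libraries. With 1 library left out, Tgfbr2 ranged from -0.037 to 0.44, Ltbp1 from -0.23 to 0.95, Ltbp3 from -0.0054 to 0.80 and Ltbp4 from -0.77 to 0.31 (0.01 without Qa-2- replicate 1). Among the other pathway genes Bgn ranged from -0.073 (without WT replicate 2) to 0.58, and Cdkn2b from -1.03 to 0.16 (without Qa-2- replicate 2). Without division by gene length, WT minus Qa-2- came to 1.49 percentage points for Ltbp1, 1.31 for Ltbp2 and -8.33 for Ltbp4, against 1.04, 1.13 and -6.73 with it, since lengths weight the family differently. Library totals alone moved the median of all genes to -0.08.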
